A study of Rattus norvegicus with 16 samples.

Results

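The Dlk1-Dio3 imprinted miRNA cluster was described in the hearts of rat pups on day 2 after birth. Its members on the array were the miRNAs whose names match a fixed list of 45 cluster names, exactly or with an arm suffix or * added. They came to 72 of the 677 miRNAs on the array, from 40 hairpins, and rno-miR-679 was the only listed name with no probe. The names below leave out the rat prefix rno- after first use. The animals were 8 HHR pups (Hypertrophic Heart Rat, an inbred line bred for a large heart) and 8 NHR pups (Normal Heart Rat, the normal-heart control strain), with 4 females and 4 males in each strain. The labels name no transgene or treatment, and each animal gave 1 unpooled Agilent 1-colour array. The labels differ on whether the whole heart or only the ventricles were taken. Of 5 cardiomyocyte miRNAs looked up to check the tissue, miR-1, miR-133a, miR-208b-3p and miR-499 were detected and miR-208 was not. The labels do not say whether pups were littermates, so p-values measure the spread between these animals. Of 6 neural miRNAs, miR-124, miR-9, miR-9* and miR-138 were detected on no array, miR-219-5p on 1 to 3 arrays and miR-128 on all 16. The liver miRNA miR-122 was detected on none.

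The Dlk1-Dio3 region carries one of the largest groups of miRNA genes in mammals. Its noncoding RNAs are made from the maternal chromosome, which is controlled by methylation of an intergenic region near Meg3, while Dlk1, Rtl1 and Dio3 are made from the paternal one. Several hairpins lie antisense to Rtl1, and the long distal run of hairpins is processed from the Mirg transcript. The miRNAs are high in embryo and placenta, decline in many tissues after birth and stay high in brain. In this rat reference (RefSeq, GRCr8) all 40 precursors lay on chromosome 6, 5 of them (miR-431, miR-433, miR-127, miR-434 and miR-136) inside the interval of Rtl1 and that of miR-770 inside Meg3. The precursor order separated 12 hairpins on the Meg3/Rtl1 side, with 20 members, from 28 on the distal side, with 52.

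The mature sequences below are those of the members that passed the strain test and of miR-494, which varied with 2 of them. Added are some relatives that differ from them by 1 base of the seed, and miR-337*, which is complementary to miR-3544. miR-539* and miR-758*, also 1 seed base from miR-300-3p and miR-379, are not printed. All are RefSeq sequences (GRCr8), matched for 66 of the 72 members. The arm of a name without a suffix was taken from miRNA nomenclature, since the files do not give it. Capitals mark the seed (bases 2 to 8), the part that pairs with target mRNAs.
rno-miR-410: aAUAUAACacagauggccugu
rno-miR-411*: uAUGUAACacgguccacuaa
rno-miR-431: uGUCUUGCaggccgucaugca
rno-miR-341: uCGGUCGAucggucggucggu
rno-miR-300-3p: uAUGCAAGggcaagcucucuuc
rno-miR-381: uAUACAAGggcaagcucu
rno-miR-379: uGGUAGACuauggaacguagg
rno-miR-411: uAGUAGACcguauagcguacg
rno-miR-3544: aACUCCUGcaugacgccguuccc
rno-miR-337*: cGGCGUCAugcaggaguugau
rno-miR-409-3p: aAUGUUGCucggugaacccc
rno-miR-494: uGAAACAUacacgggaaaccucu

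Few seeds were shared. Only miR-381 with miR-539*, and miR-494* with miR-410*, had the same seed among the 66 matched sequences. Several pairs were 1 base apart. Counted from the 5′ end of the miRNA, the seed of miR-411* turned into that of miR-410 by G4A, that of miR-300-3p into that of miR-381 by G4A, and that of miR-379 into that of miR-411 by G2A. miR-300-3p and miR-381 matched at 17 of their first 18 bases, and miR-376a and miR-376b-3p at 16. miR-379 and miR-411 matched at only 12 of them, and miR-411* and miR-410 at 10. A probe may read more than 1 of relatives that match over most of their length, and how far it did was not tested. miR-3544 is antisense to the miR-337 hairpin, and 18 of its bases were complementary to miR-337* (miR-337-5p in RefSeq).

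Only part of the cluster was detected in the neonatal heart, and by the measure used here no hairpin had both arms detected. A miRNA was counted as detected on an array where at least 1 of its probes had most of its spots flagged well above background by the scanner. By this measure 9 of the 72 members were detected on all 16 arrays, 9 on 4 to 15 arrays, 3 on 1 to 3 arrays and 51 on none. The 18 members on at least 4 arrays, which were tested, made up 25.0% of the cluster, against 198 of 677 miRNAs (29.2%) on the whole array. The 9 on every array were miR-127, miR-434 and miR-136 on the Meg3/Rtl1 side, and miR-379, miR-411*, miR-494, miR-300-3p, miR-487b and miR-409-3p on the distal side. miR-3544 was detected on 15 arrays, miR-329 on 14, miR-410 on 13, miR-299 and miR-376a on 12, miR-431 on 10, and miR-341, miR-154 and miR-369-5p on 6.

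**Figure D1:**
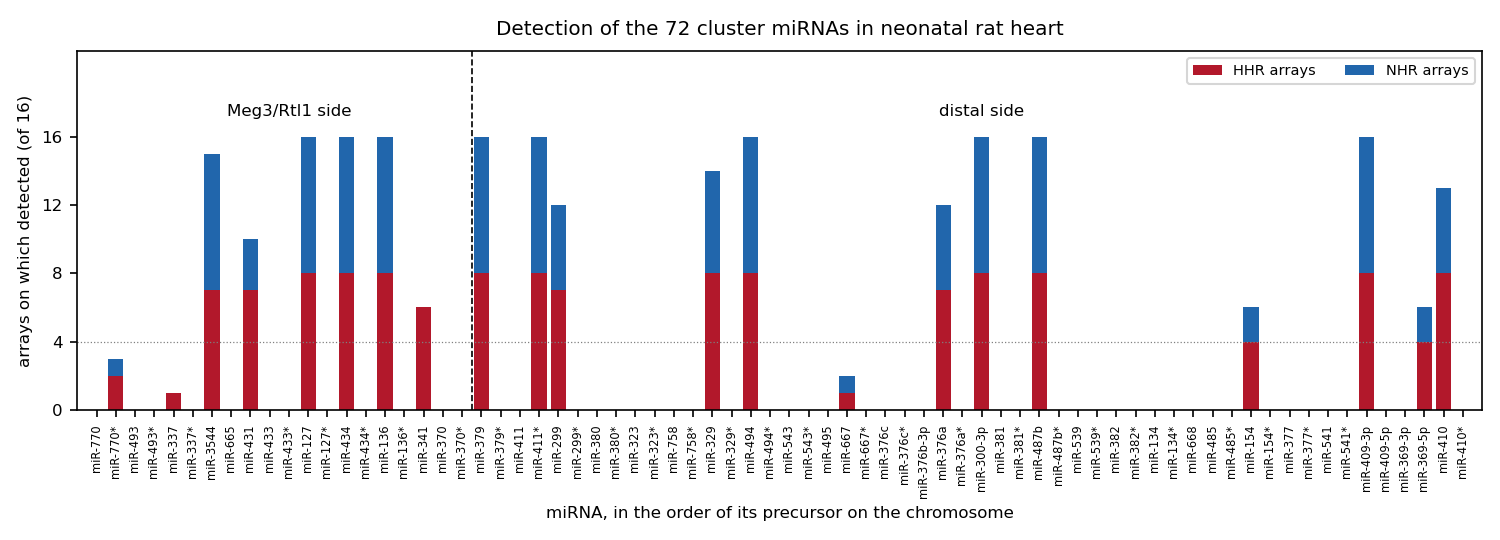
Number of arrays (of 16) on which each of the 72 cluster miRNAs was detected, in the order of their precursors, with HHR arrays in red and NHR arrays in blue stacked on them. The dashed line parts the Meg3/Rtl1 side from the distal side and the dotted line marks 4 arrays, the minimum for testing. Detected members lie on both sides, with undetected ones between them, and miR-341 is the member with 6 arrays, all of HHR.

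Both sides of the cluster held detected members. On the Meg3/Rtl1 side 6 of 20 members (30.0%) reached 4 arrays, and on the distal side 12 of 52 (23.1%). Of the 32 hairpins with both arms on the array, 14 had 1 arm tested, 18 had none and 0 had both. The arm could be the starred one: miR-411* was detected on all 16 arrays and miR-411 on 0. This depends on the flag. By the scanner's own gene flag miR-411* was on 16 arrays and miR-411 on 10, so both arms reached 4 arrays. With most of all spots of a miRNA flagged, both were on 0. miR-376a was detected on 12 arrays while its relatives miR-376b-3p and miR-376c were detected on 0. By the measure used here the hairpin within Meg3 gave little signal, with miR-770* on 3 arrays and miR-770 on 0. miR-667 was detected on 2 arrays and miR-337 on 1. By the scanner's own gene flag miR-770* was on 14 arrays, miR-667 on 16 and miR-337 on 12. In a fit filtered by that flag miR-667 was lower in HHR (-0.33, SE 0.11, limma adjusted p = 0.0185), against 45.5% of 233 miRNAs called lower. Guanine and cytosine content was alike in tested and untested members as a description. The medians were 45.5% (38.1 to 66.7, n = 17 with a sequence) for the tested members and 47.8% (23.8 to 72.7, n = 49) for the others. The others include miR-770*, miR-667 and miR-337, which were detected on fewer than 4 arrays.

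The other 51 members were not well above background on any array. They were miR-770, miR-493, miR-493*, miR-337*, miR-665, miR-433, miR-433*, miR-127*, miR-434*, miR-136*, miR-370 and miR-370* on the Meg3/Rtl1 side. On the distal side they were miR-379*, miR-411, miR-299*, miR-380, miR-380*, miR-323, miR-323*, miR-758, miR-758*, miR-329*, miR-494*, miR-543, miR-543*, miR-495, miR-667*, miR-376a*, miR-376b-3p, miR-376c, miR-376c*, miR-381, miR-381*, miR-487b*, miR-539, miR-539*, miR-382, miR-382*, miR-134, miR-134*, miR-668, miR-485, miR-485*, miR-154*, miR-377, miR-377*, miR-541, miR-541*, miR-409-5p, miR-369-3p and miR-410*. This does not show that they are absent. Of 16 arms of other miRNAs of the cluster that are not on the list (miR-540, miR-673, miR-666, miR-496, miR-412, miR-1188, miR-1193, miR-300-5p and miR-376b-5p), 0 reached 4 arrays. The count of detected members depends on the flag: with the scanner's own gene flag 23 members reached 4 arrays, with at least 1 flagged spot 23, and with most of all spots of a miRNA flagged 9 (31.9%, 31.9% and 12.5% of the 72, against 34.4%, 33.7% and 22.6% of all miRNAs).

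In the comparison of the strains, which is the study's question, a few members were higher in HHR by small amounts. Of the 18 tested members, 5 were higher (limma, Benjamini-Hochberg adjusted over 198 miRNAs, threshold 0.05), against 11.1% of all tested miRNAs, and 2 were lower, against 48.5%. Called in either direction were 59.6% of all tested miRNAs. The 5 were miR-410, miR-431, miR-341, miR-300-3p and miR-379, and the 2 were miR-3544 and miR-409-3p. The median difference, HHR minus NHR on the log2 scale, was 0.09 over the 18 members and -0.09 over all 198 miRNAs. miR-341 passed the detection filter through HHR arrays alone. Among the 17 members detected in both strains 4 were higher and 2 lower, with a median of 0.07. A difference in these bulk samples cannot tell fewer cells of a type from less RNA per cell. The direction of the higher members turned with a normexp background correction. Under it 0 of 18 members were called higher and 7 lower, against 1.01% and 65.7% of all tested miRNAs, and the medians were -0.18 for members and -0.17 for all miRNAs.

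**Figure D2:**
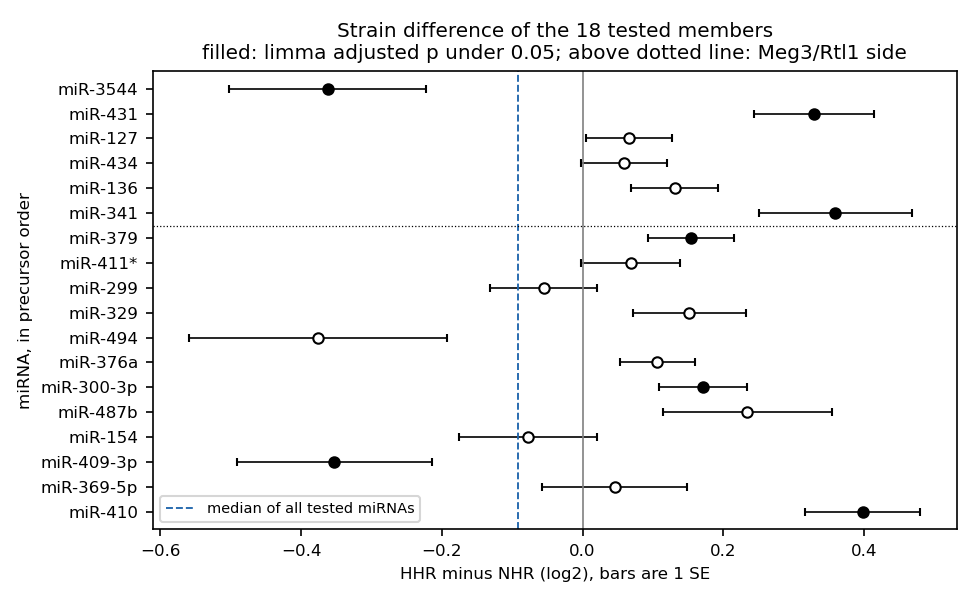
Strain difference (HHR minus NHR, log2) of each of the 18 tested members in precursor order, with bars of 1 SE, filled circles where the limma adjusted p was under 0.05. The dashed line is the median of all 198 tested miRNAs (-0.09), and 13 of the 18 members lie to the right of 0.

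miR-410, the last hairpin of the cluster, had the largest difference among the members. Its scaled log2 levels were 4.52, 5.06, 4.75 and 4.77 in HHR females and 4.18, 4.26, 4.57 and 4.45 in HHR males, against 4.20, 4.37, 4.27 and 4.14 in NHR females and 4.16, 3.86, 4.12 and 4.26 in NHR males. All 4 HHR females lay above every NHR array, while HHR males overlapped NHR. The difference was 0.40 (SE 0.082, n = 8 per strain, 1.32-fold, limma adjusted p = 0.00114), and both of its probes gave it, at 0.40 each.

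miR-431, from the Rtl1 antisense group, was detected on 7 HHR and 3 NHR arrays. These 3 were the NHR arrays that were bright before scaling, and on the 5 dim ones, described below, it was detected on 0. Its NHR arrays alone did not reach the 4 needed for testing, so it was tested because of its HHR arrays. It measured 3.38, 3.88, 3.52 and 3.61 in HHR females, 3.11, 3.08, 3.46 and 3.37 in HHR males, 3.12, 3.03, 3.26 and 2.90 in NHR females, and 3.14, 2.88, 3.24 and 3.20 in NHR males. HHR females again stood above every NHR array and HHR males did not. The difference was 0.33 (SE 0.085, 1.26-fold, limma adjusted p = 0.00549), with 0.32 from the probe detected on 10 arrays. Its other probe, detected on 0 arrays, gave 0.033.

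miR-341, a rodent miRNA next to the Rtl1 group, was detected on 6 HHR arrays (4 females and 2 males) and on 0 NHR arrays. The levels ran from 2.85 to 3.68 in HHR (median 3.27) and from 2.43 to 3.22 in NHR (median 2.94), the latter all not well above background. With each NHR array set to the higher of its value and its lowest detected level, the mean of 8 HHR arrays was 1.19-fold higher. That mean includes HHR males in which it was not detected (measured means 3.26 and 2.90, limma adjusted p = 0.0131). The measured ranges overlapped. Since it was tested only because of its HHR arrays, its call in that fit is no support for a difference. With no filter on dim miRNAs its adjusted p over 677 miRNAs was 0.0480 (limma). With normexp its difference was -0.20 (limma adjusted p = 0.0463), so 1.19-fold is not a lower bound. With a floor 4 times higher its difference was 0.0088 (adjusted p = 0.411, limma). That floor replaced all of its values but the highest (3.68), so this fit cannot compare the strains.

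miR-300-3p and miR-379 differed less. miR-300-3p measured 4.39, 4.64, 4.32 and 4.35 in HHR females and 4.10 to 4.28 in HHR males, against 4.11 to 4.25 in NHR females and 3.90 to 4.32 in NHR males. Its difference was 0.17 (SE 0.063, 1.13-fold, limma adjusted p = 0.0319). miR-379, the first hairpin of the distal side, ran from 4.13 to 4.79 in HHR (median 4.48) and from 4.01 to 4.49 in NHR (median 4.35), with a difference of 0.15 (SE 0.061, 1.11-fold, limma adjusted p = 0.0438). The ranges of the strains overlapped for both. Without 1 array at a time, miR-300-3p stayed past the threshold in 10 of 16 fits and miR-379 in 6 of 16, while miR-410 and miR-431 did so in 16 of 16. The call of miR-300-3p was lost without HHR female 2, HHR male 3, NHR female 1 or 4, or NHR male 2 or 3. That of miR-379 was kept only without HHR female 1 or 4, HHR male 1 or 2, or NHR male 1 or 4, and the lowest values without 1 array were 0.14 and 0.12.

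**Figure D3:**
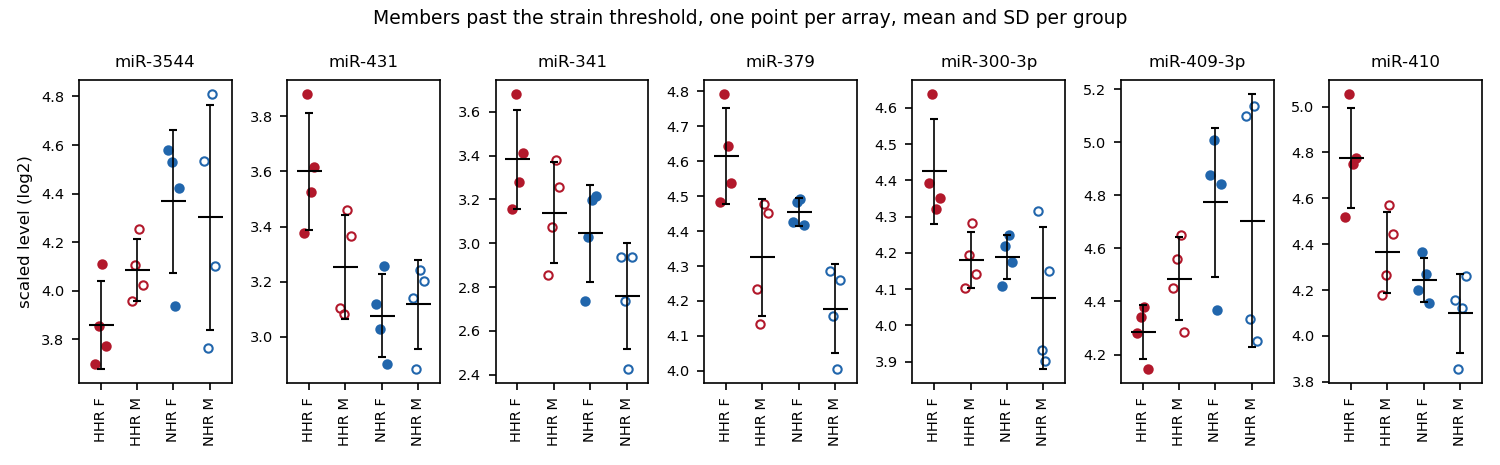
Scaled log2 level of the 7 members past the strain threshold, 1 point per array, HHR in red and NHR in blue, females filled and males open, with the mean and SD of each group of 4 in black. For miR-410 and miR-431 the 4 HHR females sit above all NHR arrays, and for miR-3544 and miR-409-3p the NHR arrays fall into a high and a low part.

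miR-3544 and miR-409-3p were lower in HHR on average, and high on part of the NHR arrays. miR-3544 differed by -0.36 (SE 0.14, limma adjusted p = 0.0390) and miR-409-3p by -0.35 (SE 0.14, limma adjusted p = 0.0414). Before scaling, the NHR arrays fell into 5 dim ones (females 1, 2 and 4, males 1 and 3, with a 75th percentile of signal of 295 to 327) and 3 bright ones (443 to 503), and all HHR arrays were bright (418 to 525). This split was made after the values were seen. miR-3544 measured 4.43 to 4.81 on the 5 dim NHR arrays, 3.76 to 4.10 on the 3 bright ones and 3.70 to 4.26 in HHR. miR-409-3p measured 4.84 to 5.14, 4.25 to 4.37 and 4.15 to 4.65 in the same order. The bright NHR arrays thus lay within the HHR range for both.

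Without scaling, the signals of these 2 members were nearly level across the arrays. The unscaled log2 signal of miR-3544 was 4.14 ± 0.12 in HHR and 4.17 ± 0.090 in NHR (SD, 8 arrays a strain), and that of miR-409-3p was 4.56 ± 0.091 and 4.57 ± 0.12. Unscaled signals of miR-410 were 4.74 ± 0.33 in HHR and 4.00 ± 0.32 in NHR. With array brightness as a covariate the differences of miR-3544 and miR-409-3p were 0.0088 and 0.011 (limma adjusted p = 0.952 and 0.941), while those of miR-410 (0.44, adjusted p = 0.00526) and miR-431 (0.34, adjusted p = 0.0282) remained past the threshold. These were the only 2 of the 18 members called in that fit, against 7.58% of all tested miRNAs called higher and 31.3% called lower. Brightness and strain overlap in these arrays, so the covariate also takes up part of a strain difference.

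**Figure D4:**
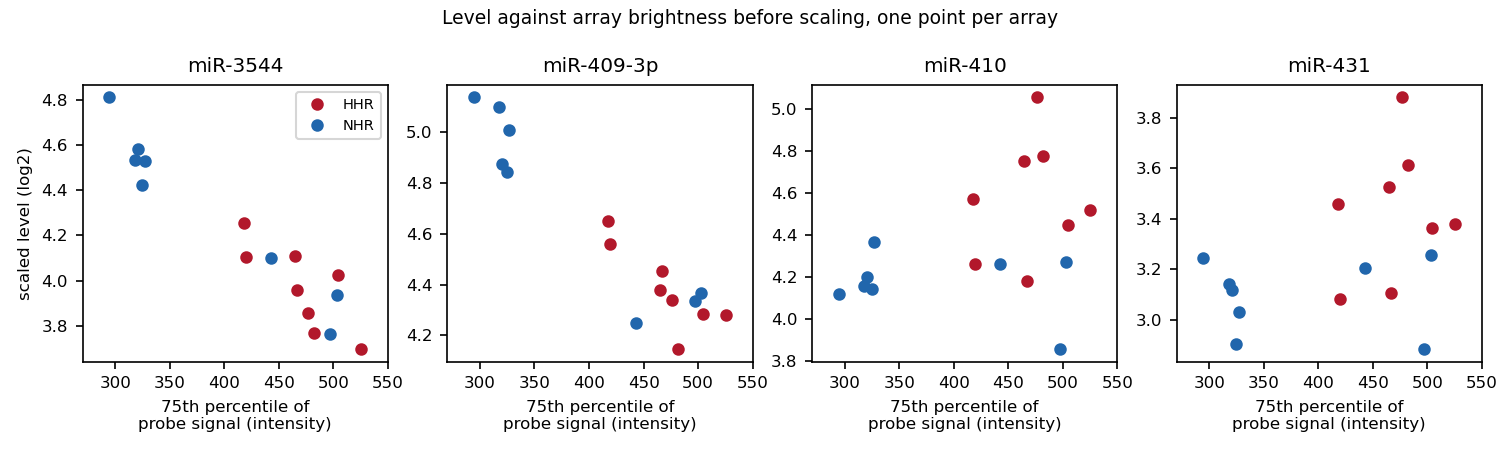
Scaled log2 level of 4 members against the 75th percentile of probe signal of the array before scaling (intensity), 1 point per array, HHR in red and NHR in blue. The levels of miR-3544 and miR-409-3p fall from the 5 dim NHR arrays (295 to 327) to the bright arrays of both strains, whereas those of miR-410 and miR-431 do not fall and their highest points are HHR arrays.

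Other processing moved the calls of these 7 in various ways. With the rule that most of all spots of a miRNA be flagged, 9 members were tested, 2 were higher (miR-410, adjusted p = 0.000942, and miR-376a, adjusted p = 0.0489) and 2 lower (miR-3544, adjusted p = 0.0364, and miR-409-3p, adjusted p = 0.0374) by limma, against 9.15% and 51.0% of 153 miRNAs. miR-376a was detected on 4 arrays by that rule and differed by 0.076. Most of its values in NHR and in HHR males were raised to the floor of that fit (13.7). With the scanner's total gene signal 11 were higher and 0 lower, against 16.2% and 19.2%. In the authors' deposited table only miR-410 and miR-341 passed, both higher, by limma on its values, against 6.57% higher and 1.01% lower.

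The 2 slides held each group equally. With the slide as a block the 5 higher and 2 lower members kept their calls and miR-487b joined the higher ones (0.23, SE 0.053, limma adjusted p = 0.00251), against 11.6% higher and 49.0% lower of all tested miRNAs. Within slide 1, with 2 arrays a group, 0 members passed (3.54% of all tested miRNAs higher, 14.1% lower). Its differences were 0.36 for miR-410, 0.32 for miR-431, 0.33 for miR-341, 0.19 for miR-300-3p, 0.07 for miR-379, -0.45 for miR-3544 and -0.42 for miR-409-3p. Within slide 2, miR-410 (0.44), miR-431 (0.34), miR-369-5p (0.25), miR-379 (0.23) and miR-487b (0.22) were higher and 0 members lower (7.58% and 22.7% of all tested miRNAs). There miR-341 differed by 0.39, miR-300-3p by 0.15, miR-3544 by -0.28 and miR-409-3p by -0.29. With the replicate number as a block 4 members were higher and 0 lower (10.6% and 47.0% of all tested miRNAs). miR-487b gained a call (adjusted p = 0.00521), and miR-300-3p (0.0563), miR-379 (0.0724), miR-3544 (0.0574) and miR-409-3p (0.0512) lost theirs, each p being limma's adjusted one.

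How many members pass depends on the scaling. With the percentile over all probes 14 of 18 were higher and 0 lower (64.1% and 8.59% of all tested miRNAs), with quantile normalization 14 and 0 (26.8% and 21.7%), without scaling 13 and 0 (23.2% and 4.04%), with spike-in scaling 5 and 0 (10.1% and 5.56%) and with median centring 5 and 2 (11.1% and 48.0%). These scalings moved the median of all 198 miRNAs by 0.28, 0.11, 0.33, 0.25 and 0.0048 on the log2 scale. Relative to that median, the members' median lay 0.18 higher in the reported scaling and 0.18 higher in each of the others except quantile normalization, where it lay 0.31 higher. In the authors' deposited table it lay below that of all tested miRNAs (0.07 against 0.09), and with normexp it did too. miR-410, miR-431 and miR-300-3p were called higher in all 6 scalings, miR-379 in 5, miR-329 in 4, and miR-3544 and miR-409-3p were called lower in 2 and below 0 in all 6. The signs of miR-299 and miR-154 flipped, both being above 0 in 4 of the 6.

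The other 11 tested members did not pass the strain test. On the Meg3/Rtl1 side miR-136 differed by 0.13, miR-127 by 0.07 and miR-434 by 0.06. On the distal side the differences were 0.23 for miR-487b, 0.15 for miR-329, 0.11 for miR-376a, 0.07 for miR-411*, 0.05 for miR-369-5p, -0.06 for miR-299, -0.08 for miR-154 and -0.38 for miR-494. miR-127, which is fully complementary to Rtl1 mRNA and among the best known of the cluster, measured 5.28 ± 0.20 in HHR (SD, n = 8) and 5.22 ± 0.11 in NHR, with ranges of 5.03 to 5.67 and 5.01 to 5.30. miR-494 had the largest SE of the members, 0.18, at 5.81 ± 0.50 in NHR (SD, n = 8), where male 3 reached 6.90, against 5.44 ± 0.12 in HHR. It was called lower with normexp (-0.30, limma adjusted p = 0.0359) and in the fits that left out NHR male 2, 3 or 4 (-0.46, -0.19 and -0.45). No member, 0 of 18, had strain ranges that were apart, while 15.7% of all tested miRNAs had.

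Both sides of the cluster held members called higher and lower in the reported fit. On the Meg3/Rtl1 side 2 of 6 tested members were higher and 1 lower, with a median difference of 0.10. On the distal side 3 of 12 were higher and 1 lower, with a median of 0.09. The Meg3/Rtl1 count of higher members includes miR-341, whose call is no support for a difference. The lower members, miR-3544 and miR-409-3p, differed by 0.0088 and 0.011 with array brightness as a covariate (limma adjusted p = 0.952 and 0.941). The shares of all tested miRNAs were 11.1% higher and 48.5% lower. The difference between the sides was not tested.

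Within females, 4 of 18 members were higher, against 8.08% of all tested miRNAs, and 1 was lower, against 44.4%. They were miR-410 (0.53, SE 0.12, limma adjusted p = 0.00306), miR-431 (0.52, SE 0.12, adjusted p = 0.00428), miR-376a (0.21, SE 0.076, adjusted p = 0.0353) and miR-300-3p (0.24, SE 0.089, adjusted p = 0.0390), with miR-3544 lower (-0.51, SE 0.20, adjusted p = 0.0462). Within males 0 of 18 passed limma's adjusted threshold, against 23.2% of all tested miRNAs in either direction, and 2 had an unadjusted p under 0.05. In males miR-410 differed by 0.27 (SE 0.12, adjusted p = 0.109) and miR-431 by 0.13 (SE 0.12, adjusted p = 0.413). The strain differences of the sexes were not shown to differ: the interaction was called for 0 of 18 members and 0.0% of all tested miRNAs by limma, with 1 member at an unadjusted p under 0.05. That member was miR-431, whose difference was 0.39 larger in females (SE 0.17, adjusted p = 0.906).

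Between the sexes, miR-379 was the 1 member called, higher in females by 0.28 (SE 0.061, 1.22-fold, limma adjusted p = 0.0421), against 1.01% of all tested miRNAs called higher. It measured 4.48, 4.79, 4.64 and 4.54 in HHR females and 4.23, 4.13, 4.48 and 4.45 in HHR males, and 4.43, 4.48, 4.49 and 4.42 in NHR females against 4.29, 4.16, 4.01 and 4.26 in NHR males. Every female lay above every male of the same strain. Over the cluster, 15 of 18 members were higher in females, with a median difference of 0.18 against 0.02 over all tested miRNAs, and 12 had an unadjusted p under 0.05, of 20 among the 198. These members vary together from array to array, as the next values show, so they are not separate observations. The call of miR-379 was lost in 13 of the 16 fits that left out 1 array. Without NHR male 1, 7 members were called: miR-379, miR-411*, miR-136, miR-369-5p, miR-376a, miR-300-3p and miR-434, against 5.56% of all tested miRNAs.

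The members rose and fell together within the groups. Deviations of each array from its group mean were correlated between members with a median Pearson r of 0.49 over the 153 pairs of 18 members, as a description over 16 arrays, against 0.18 over pairs of 197 tested miRNAs. The closest pairs were miR-329 with miR-154 (0.93), miR-127 with miR-434 (0.93), which are neighbours antisense to Rtl1, and miR-127 with miR-410 (0.90), which lie on opposite sides. miR-3544, miR-409-3p and miR-494 were apart. They correlated with one another at 0.89, 0.60 and 0.57 and with the other 15 members at a median of 0.04, while the 15 had a median of 0.62 among themselves. These 3 were singled out after their values were seen. All values share the scaling of the array, and without scaling the median was 0.83 for members and 0.82 for all miRNAs. Among the 9 members detected on every array it was 0.29 in the reported scaling.

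**Figure D5:**
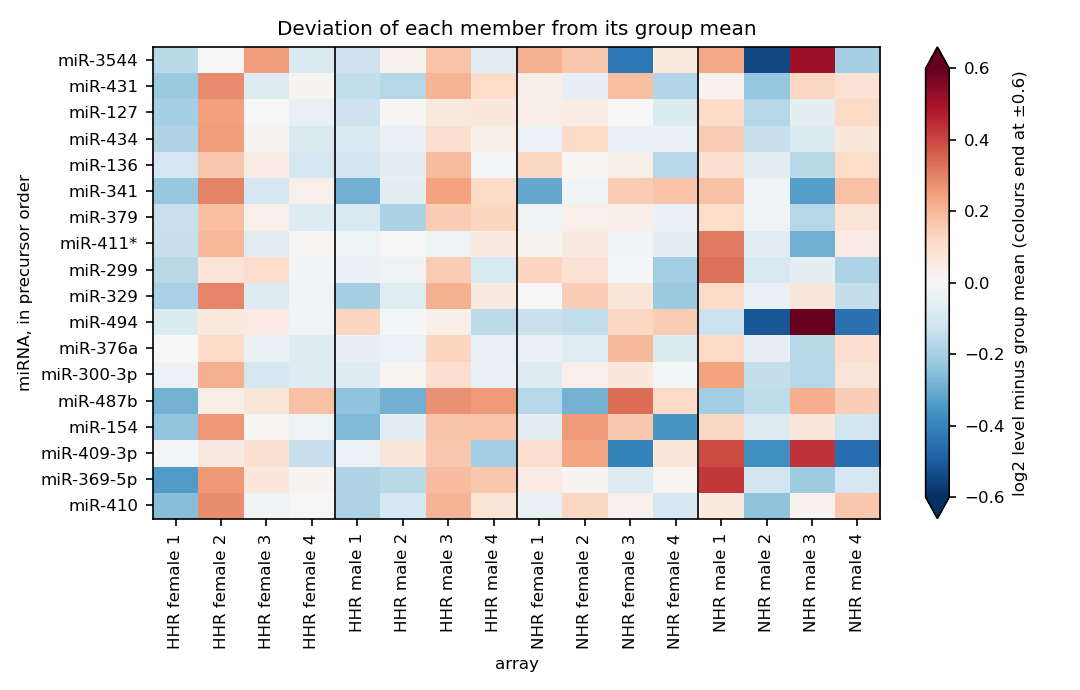
Deviation of each of the 18 tested members (rows, in precursor order) from its group mean on each of the 16 arrays (columns), in log2 units, with colours ending at 0.6 either way and black lines between the 4 groups. HHR female 2, HHR male 3 and NHR male 1 are high, and HHR female 1, HHR male 1 and NHR male 2 low, for nearly all members from both sides of the cluster.

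The shared deviations fell on single arrays. On HHR female 2 and HHR male 3, 17 of 18 members were above their group mean, and on NHR male 1 it was 16. On HHR female 1 and HHR male 1 only 1 was, and on NHR male 2 it was 0. The mean deviations of the 18 members on these arrays were 0.18, 0.15, 0.15, -0.16, -0.12 and -0.17. Of the tested miRNAs outside the cluster, the shares above the group mean on the same 6 arrays were 50%, 61.1%, 85.6%, 27.2%, 38.9% and 22.8%. The 3 high arrays lay on both slides and the 3 low ones on slide 1, and whether the animal, its RNA or the array set these deviations cannot be told apart with 1 array per animal.

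Outside the cluster, the tested miRNAs whose deviations were most like the mean of the 9 members detected on every array were miR-199a-3p (Pearson r = 0.77, Spearman rho = 0.80), miR-125b-5p (0.77 and 0.77), miR-31 (0.76 and 0.76), miR-188 (0.75 and 0.69) and miR-199a-5p (0.74 and 0.81), over 16 arrays and of 179 miRNAs compared. Without the 2 arrays farthest from the median of the members' mean, r was 0.76, 0.75, 0.64, 0.72 and 0.69 in the same order. The median r of all 179 was 0.28. miR-199a-3p and miR-199a-5p come with miR-214, which ranked at 10 (r = 0.73), from a transcript antisense to dynamin genes and are known from fibroblasts and other mesenchymal cells. The miRNAs most like the members did not share a direction in the strain test (limma). miR-188 was lower in HHR (-0.86, SE 0.16, adjusted p = 0.000746), and miR-125b-5p differed by -0.07 (adjusted p = 0.146). miR-31 was higher (0.69, SE 0.26, adjusted p = 0.0390), as was miR-199a-5p (0.20, SE 0.072, adjusted p = 0.0306). miR-199a-3p differed by 0.12 (adjusted p = 0.111) and miR-214 by 0.16 (adjusted p = 0.0670). The summed scaled level of the 3 mesenchymal miRNAs (miR-199a-3p, miR-199a-5p and miR-214) ran from 1243 to 1657 in HHR and from 1175 to 1449 in NHR. The part of these 3 in the members' differences was not tested.

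Markers of other cell types were lower in HHR or did not pass the strain test in the reported scaling, in which 48.5% of all tested miRNAs were called lower. Of the markers tested, 2 of 2 endothelial (miR-126 and miR-126*), 2 of 2 smooth muscle (miR-143 and miR-145), 2 of 3 leukocyte (miR-150 and miR-223) and 3 of 4 cardiomyocyte miRNAs (miR-1, miR-208b-3p and miR-499) were lower in HHR by limma, and 0 of 2 erythroid ones passed. Without scaling, 7 of these 9 lower markers had a higher mean in HHR (miR-126 by 0.14, miR-143 by 0.21 and miR-1 by 0.24, for example), and only miR-150 and miR-223 lay below 0 in all 6 scalings. The leukocyte markers miR-150 and miR-223 ranked at 18 and 23 in likeness to the members (r = 0.67 and 0.63). The third tested leukocyte marker, miR-142-3p, ranked at 89 of 179 (r = 0.28), near the median of all. Summed scaled levels were 964 to 1077 in HHR and 1157 to 1272 in NHR for the endothelial, 1265 to 1336 and 1392 to 1477 for the smooth muscle, 5765 to 6594 and 5907 to 7039 for the cardiomyocyte, 92.1 to 106.9 and 109.8 to 147.9 for the leukocyte, and 199 to 307 and 209 to 332 for the erythroid miRNAs. Their part in the members' values was not tested. Of the imprinted miRNAs that lie elsewhere, miR-675*, from the H19 transcript, was higher in HHR (0.22, SE 0.046, adjusted p = 0.00110), and miR-675 was detected on no array. miR-483 and miR-483*, from Igf2, differed by -0.12 and -0.15 (adjusted p = 0.163 and 0.301).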

How the data were processed

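Total RNA of 16 animals was labelled with Cy3, 1 array each. Per the file headers, the deposited spot intensities were read by Agilent Feature Extraction 10.7.3.1 (rn4), background-subtracted and not scaled between arrays. The deposited flags (other values, 0 or 1) are the scanner's. A deposited value table (log2, by the authors) served as an alternative, and no source here gives its background correction, scaling or centring (column medians 6.13 to 6.15, r at least 0.998 with the log2 median signal).

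Outlier spots were left out, spots averaged per probe, arrays scaled to the 75th percentile of 258 probes above background on all arrays, probes averaged per miRNA, values raised to a floor of 3.06 (log2 1.61) and log2 taken. limma 3.58.1 (R 4.3.3) was fitted to 4 group means with 5 contrasts (strain, strain in each sex, sex, interaction), adjusted by Benjamini-Hochberg over 198 miRNAs. The test was checked on simulated data. The number of arrays limits the precision.

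The detection rule was changed once: it first asked for most of all spots of a miRNA, which gave 153 tested miRNAs and a floor of 13.7. After those counts were seen, and before any contrast was fitted, it was set to at least 1 probe with most of its spots flagged, since a miRNA is below background only where all its probes are. Members and lists were chosen with earlier results of these data known. Every tested member is named with its strain difference. Levels are given for the members called for strain or sex over all animals and for miR-127. For miR-770 only detection counts are given. Arrays of different groups with the same replicate number tended to deviate alike. All 24 same-number correlations were positive, from 0.013 to 0.54, and 19 were above 0.1. What these numbers stand for was not tested, and the reported fit does not take them into account. Each of 2 slides held 2 arrays of every group. Alternatives covered signal, background, scaling, floor, filters, the authors' table, blocks, brightness and each array left out.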

Additional observations from a re-analysis of the deposited data

Results flagged for a closer look

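Of 72 groups of 4 arrays examined (18 members in 4 groups), 3 held an array far from the other 3, where chance gives about 1 in 20 groups. miR-434 measured 5.51 on NHR female 2, with the other 3 NHR females all at 5.36. miR-376a measured 3.80 on HHR male 3, with the other HHR males at 3.62 to 3.63, and 3.96 on NHR female 3, with the other NHR females at 3.68 to 3.72.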

How the results depend on the processing

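The interaction (0 members) kept its count in every alternative run. The strain median stayed above 0 in each alternative except normexp and the fit with no filter on dim miRNAs, where it was 0. Members higher and lower in HHR (5 and 2 as reported) numbered 11 and 0 with total gene signal, 0 and 7 with normexp, 14 and 0 with the percentile over all probes, 14 and 0 with quantile normalization, 13 and 0 with no scaling, 5 and 0 with spike-in scaling, 2 and 0 with a floor 4 times higher (7.58% and 41.4% of all tested miRNAs), 2 and 0 in the authors' value table, 2 and 1 among miRNAs detected on all arrays (9.87% and 49.3%), 2 and 2 with detection by most of all spots, 2 and 0 with array brightness as a covariate, 0 and 0 within slide 1, and 5 and 0 within slide 2. Without the filter on dim miRNAs 1 was lower (12.6%). Leaving out 1 array gave 3 to 6 higher, 0 to 3 lower, 2 to 7 called in females, 0 in males and 0 to 7 by sex.

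With the replicate number as a block the counts were 4 higher, 0 lower, 3 in females, 0 in males and 0 by sex. The labels do not tie that number to a shared litter or batch. The shared r was then 0.59, against 0.22 over all tested miRNAs. In females the 5 calls (52.5% of all tested miRNAs) became 8 with total gene signal (27.8%), 0 with normexp (26.3%), 15 with the percentile over all probes (65.2%), 13 with quantile normalization (34.3%), 2 with spike-in scaling (3.54%), 3 with the higher floor (44.9%), 1 in the authors' table (3.03%), 2 among miRNAs on all arrays (52.6%), 2 with the covariate (31.3%), and 1 and 2 within slides 1 and 2 (12.6% and 22.2%). In males the 0 calls (23.2% of all) became 2, 11 and 4 with total gene signal, the percentile over all probes and quantile normalization (15.2%, 42.9% and 19.2%), and 1 within slide 2 (7.07%). The sex call of miR-379 was lost (0 called members) in 17 of 19 alternatives, all but the lower floor and detection on all arrays.

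The median strain difference of members (0.09) was 0.26 with total gene signal, -0.18 with normexp, 0.37 with the percentile over all probes, 0.32 with quantile normalization, 0.43 with no scaling and 0.35 with spike-in scaling. In the same order it was 0.27, -0.18, 0.38, 0.30, 0.44 and 0.36 on the Meg3/Rtl1 side and 0.26, -0.19, 0.37, 0.32, 0.43 and 0.35 on the distal side. Without 1 array it ran from 0.06 to 0.12 for the members, 0.06 to 0.12 on the Meg3/Rtl1 side and 0.05 to 0.12 on the distal side. The shared r was 0.49, against 0.18 over all tested miRNAs. It was 0.32 with quantile normalization (0.026 over all) and 0.39 with the percentile over all probes (0.31 over all). Without scaling it was 0.83 and with spike-in scaling 0.84, against 0.82 and 0.84 over all, so there the members did not stand out. Among members detected on all arrays it was 0.29, and without 1 array 0.42 to 0.56. Detected members numbered 9 with most of all spots flagged.

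Signs turned with normexp for miR-431 (-0.18), miR-127 (-0.13), miR-434 (-0.12), miR-136 (-0.17), miR-341 (-0.20), miR-379 (-0.15), miR-411* (-0.18), miR-329 (-0.17), miR-376a (-0.19), miR-300-3p (-0.17), miR-487b (-0.10), miR-369-5p (-0.21) and miR-410 (-0.091). They turned with the brightness covariate for miR-3544 (0.0088) and miR-409-3p (0.011), and within slide 1 for miR-411* (-0.0019) and miR-369-5p (-0.16). miR-299 turned to 0.22, 0.17, 0.28 and 0.20 with the percentile over all probes, quantile normalization, no scaling and spike-in scaling, to 0.035 in the authors' table, 0.036 with the covariate, 0.097 within slide 2 and 0.00041 without NHR male 1, the top of its range of -0.090 to 0.00041 when 1 array was left out. miR-154 turned to 0.20, 0.18, 0.26 and 0.18 with the same 4 scalings, to 0.0042 with the higher floor, 0.024 in the authors' table and 0.059 within slide 2. The cause was not tested. Signal over background limits miR-341, miR-154 and miR-369-5p most, each detected on 6 arrays. Of the alternatives, the scanner's gene flag, the rule on most of all spots and the block for the shared r were chosen after seeing the data.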
